A study of Mus musculus with 8 samples.

Results

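The genes described here are 29 cardiac ion channel, channel subunit and pump genes, measured in nuclear RNA of HL1 cells, a mouse line of beating atrial muscle cells. They were chosen by name. Each was read from a table of 65265 short-read rows as the same-strand assembled locus whose span overlapped the GENCODE M21 gene most, with a Jaccard overlap of at least 0.5. Where no assembled locus met this, the rows of the gene's RefSeq accessions were summed. That gave 20 genes from an assembled locus and 9 from summed accessions (Scn4b, Kcne1, Kcna5, Kcnd3, Kcnip2, Kcnj2, Kcnj12, Kcnn3 and Cacna1g). Of the 29 genes, 27 had reads, and Kcna5 and Kcnj2 were at 0 in all 6 libraries.

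The cells were grown in a medium with norepinephrine and ascorbic acid, and no further treatment or genetic change is named for any group. Nuclei of 3 cultures were split into a soluble nucleoplasm and a pellet of chromatin with the RNA that stays bound to it. The short-read set holds 3 chromatin and 3 nucleoplasm libraries made with strand kept from 100 ng of RNA each and read as 50 bp single ends. A long-read nanopore set holds 2 libraries of chromatin RNA and none of nucleoplasm. The fraction tag of the nucleoplasm libraries names chromatin, whereas their titles name nucleoplasm, and the titles were followed.

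A voltage-gated channel opens when the membrane potential changes and lets its chosen ion down its gradient. In the atrium, sodium and calcium channels carry the inward current of the action potential, potassium channels end it and set the resting potential, and pacemaker channels bring resting cells back towards threshold. Accessory subunits tune or traffic the pores, and the sodium pump restores the ion gradients. RNA of a gene that is still being transcribed and spliced is held on chromatin, whereas finished messenger RNA passes through the nucleoplasm on its way to the cytoplasm.

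With the normalization undone, the short-read libraries held 91657034 to 121773350 counts over all rows, called recovered reads below. StringTie estimated these counts, so the totals are not depths of sequencing. Taken as the limit that a count of 0 allows for counting error alone, 3 such counts correspond to 2.17 to 3.60 normalized counts. The fractions separated as their labels state. Malat1, a long noncoding RNA of the nucleus, and Pvt1, another nuclear noncoding RNA, were higher in chromatin by 3.82 ± 0.20 and 3.93 ± 0.20 on the log2 scale (SE). The messenger RNAs of Gapdh, a glycolysis enzyme, and B2m, the light chain of class I antigen presentation, were lower, at −2.07 ± 0.25 and −2.67 ± 0.13. Of 10 atrial cardiomyocyte marker genes 8 had reads, and no row met the rule for Myh6 and Tnnt2, so these were not measured. The 7 without Ttn summed to 130096 to 237892 normalized counts in chromatin and 67680 to 140186 in nucleoplasm. Ryr2 alone read 101687 to 177668 in chromatin and 14020 to 25856 in nucleoplasm. Actc1, Myl4, Myl7 and Tnni3 lay between 1509 and 37852 in chromatin and between 4828 and 43889 in nucleoplasm. Nppa and Sln lay between 10.4 and 85.9 in chromatin and between 15.9 and 376 in nucleoplasm. Fibroblast markers, all 6 with reads, summed to 120696 to 174056 in chromatin and 253889 to 461194 in nucleoplasm. Col1a1, with 101002 to 115918 in chromatin, and Col3a1, with 18906 to 56749, made up nearly all of this. Pdgfra lay between 699 and 1022 in chromatin and between 1267 and 2336 in nucleoplasm. Col1a2, Dcn and Postn lay between 20.3 and 255 in chromatin and between 36.0 and 514 in nucleoplasm. Endothelial markers summed to between 1078 and 3023 with Cdh5 at 0, neuronal ones to between 370.0 and 704, blood ones to between 50.5 and 162, and ventricular ones to between 8.13 and 22.2 with Irx4 at 0. Kdr, with 808 to 2570, was most of the endothelial sum. Syt1, with 367 to 702, was nearly all of the neuronal sum, where Rbfox3 and Snap25 had at most 3.60. The part that these markers play in the results was not tested.

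The sequences below show what the potassium-conducting members share apart from the rule that chose them. The pore of these channels is lined by a loop whose selectivity filter reads glycine, tyrosine or phenylalanine, and glycine in the coding sequence. Its 9 coding bases, shown in capitals, were searched in frame on the coding strand in the longest GENCODE M21 coding sequence as GGNTACGGN, GGNTATGGN, GGNTTCGGN and GGNTTTGGN. All 15 potassium and pacemaker channel genes held a match, 19 matches in all, beside 13.4% of 21584 coding genes, so that the letters alone do not mark a channel. Each line gives the coding strand from 5′ to 3′ with 9 bases on either side. The pacemaker channel Hcn4, the delayed rectifier Kcnh2, 3 inward rectifiers and Kcnk3 are shown, since these pores share a filter while Kcnh2 was higher and Kcnj11 and Kcnk3 lower in chromatin in the fit by culture given below.
Hcn4, exon 4, chr9:58855582-58855608, plus strand: ctgtgcattGGGTATGGAcggcaggca
Kcnh2, exon 7, chr5:24325546-24325572, minus strand: accagcgtgGGCTTTGGCaatgtctct
Kcnj3, exon 1, chr2:55437624-55437650, plus strand: gccaccatcGGCTATGGCtaccgctac
Kcnj5, exon 2, chr9:32322550-32322576, minus strand: acaaccattGGGTATGGCttcagagtc
Kcnj11, exon 1, chr7:46099487-46099513, minus strand: gtgaccattGGTTTCGGCgggcgcatg
Kcnk3, exon 2, chr5:30622199-30622225, plus strand: accaccatcGGCTTCGGCgactatgtg
Coordinates are of GRCm38 (mm10) and all 6 windows lie in coding exons. The windows shown for Kcnh2, Kcnj11 and Kcnk3 carry the form with TT at the middle codon and the other 3 windows the form with TA. Kcnk3, a subunit with a pair of pore loops, held 2 matches, of which the one nearer the 3′ end is shown, and Hcn4 held 2, of which the one nearer the 5′ end is shown. The match not shown has the form with TA in Kcnk3 and the form with TT in Hcn4. The form seen for these genes thus depends on which match is shown. In Hcn4 the match shown lies at codons 480 to 482 and the other at codons 907 to 909 of 1201, in exon 8. Whether each of the 19 matches lies in a pore loop was not tested. A match is a description of these letters only.

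Both libraries numbered 3 stood apart from those numbered 1 and 2, and this touched many of the channel genes. Kcnd2, the pore of the fast transient outward current, read 18.3, 23.1 and 863 normalized counts in chromatin replicates 1, 2 and 3 and 6.06, 13.2 and 583 in nucleoplasm. Its level in replicate 3 was thus 41.7 times the mean of replicates 1 and 2 in chromatin and 60.6 times in nucleoplasm. Going the other way, Cacna1h, a T-type calcium channel, read 3576, 4025 and 887 in chromatin and 3687, 3645 and 744 in nucleoplasm. In both genes the libraries of the same number resembled each other across the fractions far more than the 3 libraries of 1 fraction did.

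Over the 21 members with a mean of at least 100 normalized counts, replicates 1 and 3 differed by at least 2-fold the same way in both fractions in 6 genes, beside 3.8% of the 15731 rows of that level. Replicates 2 and 3 did so in 8, beside 3.91% of rows. Replicates 1 and 2 did so in none, beside 0.528% of rows. Kcnj5, Abcc9, Kcnk3, Cacna1d and Cacna1h were lower in replicate 3 against both others, Kcnq1 and Kcne1 were lower against replicate 2, and Kcnd2 was higher against both. Kcnd2 reached a mean of 100 only through its libraries numbered 3, so its place in these counts follows from the values that the filter used. Several cardiomyocyte markers were also lowest in replicate 3: Myl4, the atrial light chain of myosin, read 10759, 12770 and 3184 in chromatin and 19380, 21683 and 4828 in nucleoplasm, and the 7 summed markers without Ttn read 237892, 233481 and 130096 in chromatin. The fibroblast collagen gene Col3a1 was highest there, with 18906, 21910 and 56749 in chromatin and 41666, 41172 and 113109 in nucleoplasm. Whether replicate 3 held fewer cardiomyocytes or cells with less of these RNAs cannot be told apart in bulk RNA, and the part of the markers in the channel values was not tested.

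**Figure D1:**
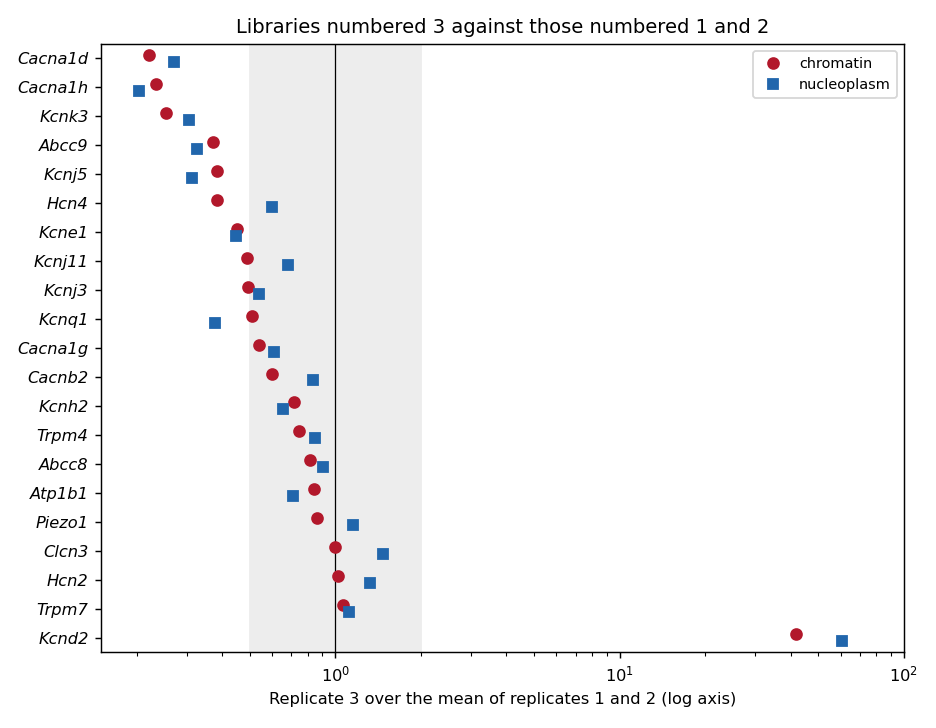
Each row is 1 of the 21 genes whose mean over the libraries reached 100 normalized counts, and the log x axis gives replicate 3 over the mean of replicates 1 and 2, in chromatin (red circles) and nucleoplasm (blue squares); the grey band spans 2-fold in either direction. Kcnd2, which reached that mean only through replicate 3, sits at 41.7 and 60.6, whereas Cacna1d, Cacna1h, Kcnk3, Abcc9 and Kcnj5 lie left of the band in both fractions.

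The main comparison asks which channel RNAs were held on chromatin and which were in the nucleoplasm. It used limma on log2(normalized count + 1) over all 35778 rows with reads, with Benjamini-Hochberg adjustment, and log2 fold changes are on that scale. Of the 27 genes with reads, 6 were higher in chromatin (Kcnip2, Abcc8, Cacna1d, Cacnb2, Trpm7 and Clcn3), where 26.9% of all rows and 25.5% of 10958 assembled coding loci were higher. Lower in chromatin were 2 (Hcn2 and Piezo1), where 20.9% of all rows and 43.3% of coding loci were lower. More than 4-fold higher were 3 genes (Kcnip2, Cacna1d and Cacnb2), beside 15.7% of all rows. The median log2 fold change of the 27 was 0.03, beside 0.38 over all rows and −0.32 over the coding loci.

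All 3 chromatin libraries lay above all 3 nucleoplasm libraries in 7 of the 27 genes (31.5% of all rows), below them in 3 (23.8% of all rows), and the fractions overlapped in 17. In several of these overlaps, as in Kcnk3, replicate 3 was the lowest library of both fractions, and the difference within each culture had the same sign in 3 of 3 cultures. Fitted with the culture as a block, with same-numbered libraries taken as the fractions of 1 culture, 9 genes were higher, beside 28.8% of all rows, and 7 were lower, beside 23.6% of all rows. Kcnh2, Kcnd2 and Kcnn2 joined the genes that were higher, and Kcne1, Kcnj11, Abcc9, Kcnk3 and Atp1b1 joined those that were lower. Without both libraries numbered 3 there were 7 higher, beside 31.2% of all rows, and 6 lower, beside 25.5%. The number more than 4-fold higher was 2 or 3 under each alternative. Scaled to the ERCC standards instead, which moved the median of all rows to 0.83, 9 were higher, beside 34.8% of all rows, and 0 lower, beside 8.69%. After quantile normalization, with a median of 0.01, 6 were higher, beside 20.2%, and 5 lower, beside 22.9%.

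**Figure D2:**
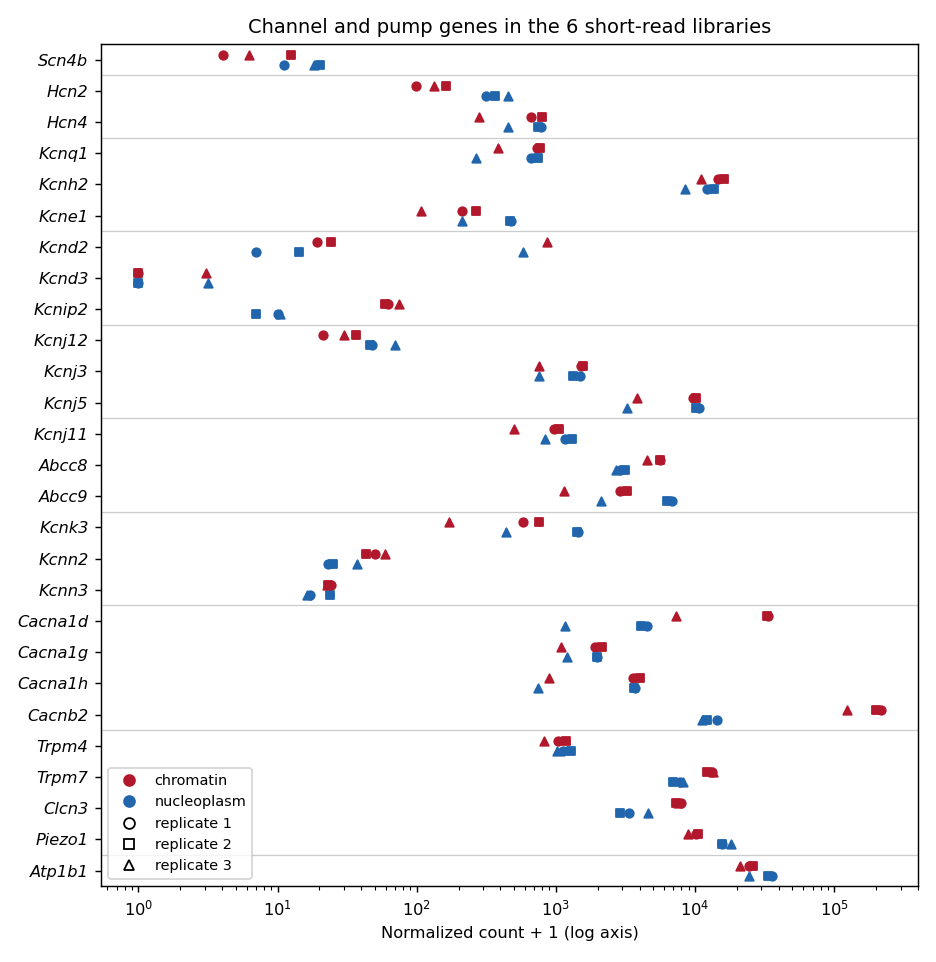
Normalized count + 1 on a log axis for the 27 genes with reads, in chromatin (red) and nucleoplasm (blue), with a circle, square or triangle for replicates 1, 2 and 3 and grey lines between the roles. Chromatin lies wholly to the right for Kcnip2, Abcc8, Kcnn2, Cacna1d, Cacnb2, Trpm7 and Clcn3, and the triangles of replicate 3 lie apart in Kcnd2, Kcnk3, Cacna1d and Cacna1h.

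**Figure D3:**
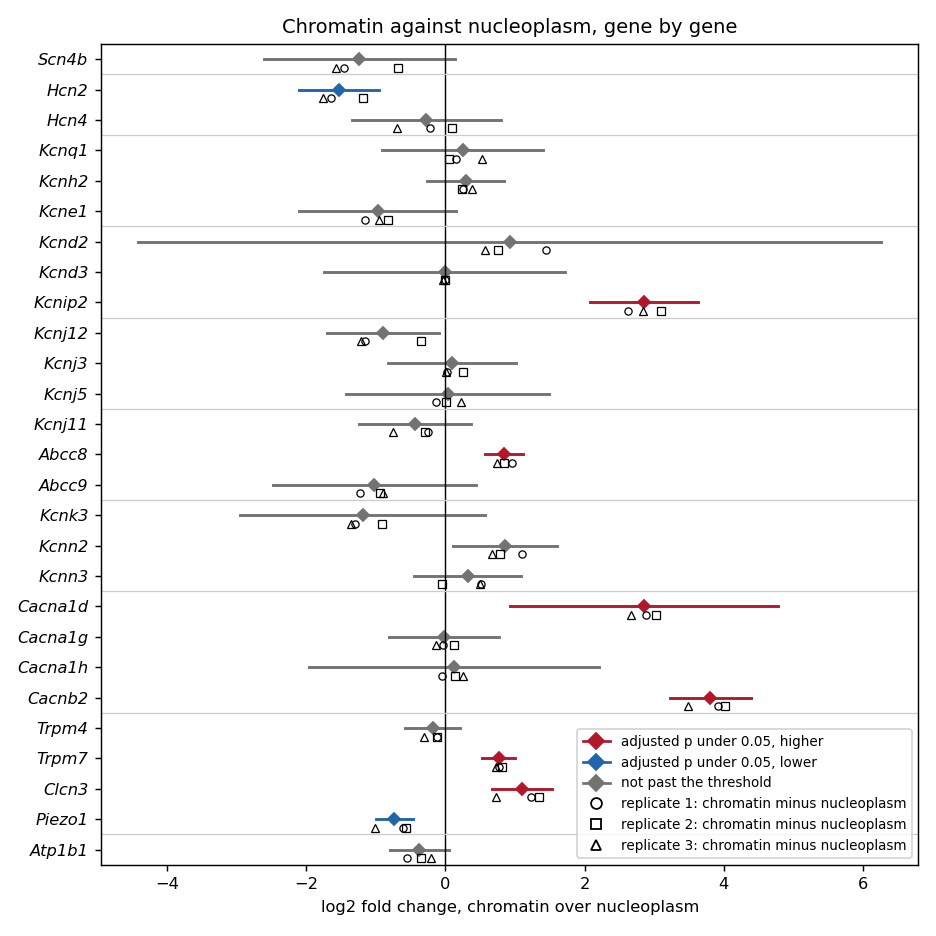
Diamonds give the limma log2 fold change of chromatin over nucleoplasm with its 95% interval for the 27 genes, in red or blue where the adjusted p is under 0.05, and open symbols below each give the difference in replicates 1, 2 and 3. The 3 open symbols lie close together in Kcne1, Abcc9 and Kcnk3, whose bars cross 0, and the interval of Kcnd2 runs from −4.42 to 6.27.

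The calcium channel genes held the highest chromatin excess. Cacnb2 encodes the beta subunit that brings L-type calcium channels to the membrane. It read 218333, 198449 and 124741 normalized counts in chromatin and 14408, 12250 and 11145 in nucleoplasm, so that every chromatin library was far above every nucleoplasm library. The log2 fold change was 3.81 ± 0.24 (SE, 95% interval 3.22 to 4.39, adjusted p = 6.87e-05, limma), a ratio of 14.0, and it was higher in 3 of 3 cultures. Its mean level in chromatin ranked 32 among all rows, and in nucleoplasm 1081. Processed pseudogenes lie inside this gene of 385 kb, on the same strand too, and reads of a locus and of a pseudogene nested in it cannot be told apart in the table.

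Cacna1d encodes the pore of the L-type channel Cav1.3, known from the sinoatrial node and the atrium. It read 33427, 33135 and 7351 in chromatin and 4519, 4065 and 1161 in nucleoplasm. Replicate 3 was the lowest of each fraction, and yet its chromatin value was above every nucleoplasm value. The log2 fold change was 2.86 ± 0.79 (adjusted p = 0.0258, limma), with 2.89, 3.03 and 2.66 within cultures 1, 2 and 3. The call was lost without chromatin replicate 1 (2.49, adjusted p = 0.0989), chromatin replicate 2 (adjusted p = 0.0898) or nucleoplasm replicate 3 (2.23, adjusted p = 0.0624), and when rows at 0 were kept in the fit (adjusted p = 0.0985). It stood at 2.96 (adjusted p = 0.000768) without both libraries numbered 3 and had an adjusted p of 0.000161 with the culture as a block.

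The T-type pores Cacna1g and Cacna1h, which open near the resting potential, did not pass the test. Cacna1g, summed over 41 accession rows, read 1915, 2155 and 1094 in chromatin and 1972, 1987 and 1203 in nucleoplasm, a log2 fold change of −0.02 ± 0.32 with a 95% interval of −0.81 to 0.77. Reads of this gene were spread over 16 accession rows, and only 3 of these had reads in all 6 libraries. The row NM_001177890.1, for instance, read 139, 521 and 27.1 in chromatin and 643, 416 and 633 in nucleoplasm. Which isoform row a read fell in thus varied between libraries of 1 fraction, whereas the sum was steadier. Another row with reads in all 6 libraries read 250, 349 and 155 in chromatin and 7.07, 19.2 and 6.52 in nucleoplasm, without overlap. The remaining such row read 1088, 425 and 178 in chromatin and 639, 666 and 422 in nucleoplasm. These rows were not tested singly. Cacna1h had a log2 fold change of 0.12 ± 0.85 with an interval of −1.97 to 2.20, and replicate 3 was the lowest library of both fractions. With the culture as a block its adjusted p was 0.289.

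Among the pacemaker channels, Hcn2 fell in chromatin and Hcn4 did not pass the test. Both encode pores opened by hyperpolarization, and Hcn4 is the main form of the sinoatrial node. Hcn2 read 98.6, 160.3 and 132 normalized counts in chromatin and 312, 367 and 451 in nucleoplasm. No chromatin library reached the lowest nucleoplasm library, and the log2 fold change was −1.53 ± 0.23 (adjusted p = 0.00231, limma). With ERCC scaling it was −0.80 (adjusted p = 0.113). Hcn4 read 665, 795 and 280.0 in chromatin and 779, 744 and 455 in nucleoplasm, and its groups overlapped (−0.28 ± 0.44, interval −1.35 to 0.79).

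The delayed rectifiers end the action potential. Kcnh2, the pore of the rapid component, was the most abundant of them per length, with 2868 ± 540.1 normalized counts per kb of exon in chromatin and 2364 ± 552 in nucleoplasm (SD, n = 3). It read 14571, 16106 and 11005 in chromatin and 12246, 13645 and 8475 in nucleoplasm. The groups overlapped, but each chromatin library was above the nucleoplasm library of its culture, by 0.25, 0.24 and 0.38 on the log2 scale (0.29 ± 0.23, adjusted p = 0.368; adjusted p = 0.0181 with the block). Quantile normalization turned this difference to −0.061 (adjusted p = 0.851), and ERCC scaling raised it past the threshold (1.02, adjusted p = 0.00349).

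Kcnq1 is the pore of the slow component and Kcne1 its accessory subunit. Kcnq1 read 734, 767 and 382 in chromatin and 662, 738 and 264 in nucleoplasm (0.25 ± 0.47, adjusted p = 0.687). Kcne1 read 212, 264 and 107 in chromatin and 473, 467 and 209 in nucleoplasm. Each culture had less Kcne1 in chromatin, by 1.15, 0.82 and 0.96 on the log2 scale as the plot of fold changes shows, but the groups overlapped, with both values of replicate 3 the lowest of their fraction (−0.98 ± 0.46, adjusted p = 0.137; adjusted p = 0.00253 with the block). Most of its reads lie in an accession that was assigned by position only. The other accession of Kcne1, matched by symbol, had reads in 1 library alone, and without the row assigned by position the fold change was 2.27 with an adjusted p of 0.396. Kcna5, the pore of the ultrarapid atrial current, was at 0 in all 6 libraries.

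The transient outward channels repolarize the cell early. Kcnip2, the calcium-binding subunit of these channels, read 61.0, 58.7 and 73.9 normalized counts in chromatin and 9.09, 5.99 and 9.42 in nucleoplasm. Every chromatin library lay above every nucleoplasm library, with a log2 fold change of 2.85 ± 0.32 (adjusted p = 0.000607, limma), although the level in nucleoplasm is that of a few reads. Of its 7 accession rows 2 had reads, and NM_145703.2 read 38.6, 0 and 55.2 in chromatin and 0 in every nucleoplasm library. The pores did not pass the test: Kcnd2, given above, had 0.93 ± 2.18, and within cultures the difference was 1.45, 0.76 and 0.56 (adjusted p = 0.0419 with the block). Without chromatin replicate 3 its fitted value was −0.85 and without nucleoplasm replicate 1 it was −0.30. Kcnd3 had at most 2.17 normalized counts, in replicate 3 of both fractions, which is within the limit a count of 0 allows.

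Inward rectifiers hold the resting potential, and of the 4 listed none of the 3 with reads passed the test. Kcnj3 and Kcnj5 encode the 2 subunits of the muscarinic potassium channel by which the vagus slows the atrium. Kcnj5 read 9752, 10204 and 3821 in chromatin and 10772, 10112 and 3266 in nucleoplasm (0.03 ± 0.60, interval −1.43 to 1.49). Kcnj3 read 1512, 1571 and 761 in chromatin and 1493, 1322 and 758 in nucleoplasm (0.09 ± 0.38, interval −0.83 to 1.01). Within each culture the fractions of these genes differed far less than replicate 3 did from the other cultures, and both genes were lowest in replicate 3. Per kb of exon Kcnj5 was above its partner, with 1692 ± 760.3 against 246 ± 86.6 normalized counts in chromatin (SD, n = 3), and the ranges did not overlap. Kcnj12 read 20.3, 35.6 and 29.1 in chromatin and 46.5, 45.5 and 68.9 in nucleoplasm (−0.90 ± 0.33, adjusted p = 0.0672; adjusted p = 0.0578 with the block). It was lower over rows with a mean of at least 10 (adjusted p = 0.0457) and with quantile normalization (−1.74, adjusted p = 0.00858), whereas with ERCC scaling it stood at −0.19 (adjusted p = 0.747). Kcnj2, the main pore of the ventricular resting current, was at 0 in all libraries.

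The ATP-sensitive channel joins the pore Kcnj11 to a sulfonylurea receptor, SUR1 from Abcc8 or SUR2 from Abcc9. Abcc8 was higher in chromatin, and Abcc9 was lower in the fit with the culture as a block but not in the fit without it. Abcc8 read 5615, 5576 and 4558 in chromatin and 2896, 3119 and 2728 in nucleoplasm, with no overlap (0.84 ± 0.11, adjusted p = 0.00131, limma). Abcc9 read 2899, 3264 and 1140 in chromatin and 6783, 6286 and 2124 in nucleoplasm. Each culture had less Abcc9 in chromatin, at −1.23, −0.95 and −0.90, while the groups overlapped (−1.02 ± 0.59, adjusted p = 0.217; adjusted p = 0.00131 with the block). The difference between the receptors was not tested. Kcnj11 read 971, 1061 and 496 in chromatin and 1161, 1305 and 841 in nucleoplasm (−0.44 ± 0.33, adjusted p = 0.344; adjusted p = 0.0477 with the block), and ERCC scaling turned it to 0.29. Its assembled locus met the overlap rule narrowly, with a Jaccard overlap of 0.527.

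Kcnk3 encodes TASK-1, a background potassium channel of the atrium. It read 583, 759 and 169.6 in chromatin and 1441, 1426 and 438 in nucleoplasm. Each culture had less in chromatin, at −1.30, −0.91 and −1.36, but replicate 3 in nucleoplasm lay below replicates 1 and 2 in chromatin (−1.19 ± 0.72, adjusted p = 0.235; adjusted p = 0.00199 with the block). The calcium-activated channels were scarce. Kcnn2 read 48.8, 41.9 and 58.3 in chromatin and 22.2, 24.0 and 36.2 in nucleoplasm, without overlap (0.85 ± 0.31, adjusted p = 0.0642; adjusted p = 0.0351 with the block). Over rows with a mean of at least 10 its adjusted p was 0.0430, with ERCC scaling it was 1.56 (adjusted p = 0.0248) and with quantile normalization 0.018 (adjusted p = 0.972). Kcnn3 read 21.9 to 23.4 in chromatin and 15.2 to 22.8 in nucleoplasm (0.32 ± 0.31, adjusted p = 0.440).

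Of 4 channels with broader roles in many tissues, 2 were higher in chromatin, beside 26.9% of all rows, and 1 lower, beside 20.9%. Trpm7, a magnesium- and calcium-permeable channel with a kinase domain, read 13278, 12211 and 13518 in chromatin and 7783, 6932 and 8204 in nucleoplasm (0.77 ± 0.10, adjusted p = 0.00102, limma). Clcn3, a chloride and proton exchanger of endosomes, read 7874, 7319 and 7589 in chromatin and 3353, 2872 and 4568 in nucleoplasm (1.10 ± 0.18, adjusted p = 0.00273). In both genes the groups stood clear of each other. Piezo1, a channel opened by stretch of the membrane, read 10249, 10542 and 8925 in chromatin and 15656, 15648 and 18098 in nucleoplasm, again with no overlap but lower in chromatin (−0.73 ± 0.11, adjusted p = 0.00203). With ERCC scaling the value of Piezo1 was 0.00029 (adjusted p = 0.999). Trpm4, a calcium-activated cation channel, read 1032, 1174 and 819 in chromatin and 1124, 1278 and 1018 in nucleoplasm, and did not pass the test (−0.19 ± 0.16, adjusted p = 0.406), although with ERCC scaling it was higher (0.55, adjusted p = 0.0432).

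Atp1b1, the beta subunit of the sodium pump, was among the highest members per length, with 7721 ± 804 normalized counts per kb of exon in chromatin and 10114 ± 1933 in nucleoplasm (SD, n = 3). It read 24271, 25989 and 21108 in chromatin and 35776, 33268 and 24438 in nucleoplasm. Each culture had less in chromatin, at −0.56, −0.36 and −0.21, but nucleoplasm replicate 3 lay below chromatin replicate 2 (−0.38 ± 0.17, adjusted p = 0.132; adjusted p = 0.0308 with the block), with ERCC scaling the value was 0.36, and with quantile normalization it was lower (−0.80, adjusted p = 0.0120). Scn4b, a sodium channel beta subunit, had 3.05 to 11.5 normalized counts in chromatin and 10.1 to 19.2 in nucleoplasm (−1.24 ± 0.56, adjusted p = 0.124), and it was lower with quantile normalization (−2.63, adjusted p = 0.0186). Per kb of exon the chromatin level of the 27 genes ran from 0.0724 in Kcnd3 to 13646 in Cacnb2.

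The other channel and pump genes of the heart were read by the same rule from a list of 47, of which 46 had a row and 42 had reads. Of these, 10 were higher in chromatin, beside 26.9% of all rows, and 9 lower, beside 20.9%, with a median log2 fold change of −0.13. Cacna1c, the pore of the main cardiac L-type channel and partner of Cacnb2, was higher by 2.54 ± 0.31 (adjusted p = 0.000835, limma), Slc8a1, the sodium-calcium exchanger, by 2.29 ± 0.18 (adjusted p = 0.000157), and Trpc1, a cation channel, by 1.55 ± 0.08 (adjusted p = 3.64e-05). Lrrc8a, a volume-regulated anion channel subunit, stood at −1.31 ± 0.19 (adjusted p = 0.00202) and Kcnab2, a potassium channel beta subunit, at −1.26 ± 0.21 (adjusted p = 0.00319). With the block, 9 of the 42 were higher, beside 28.8% of all rows, and 15 lower, beside 23.6%.

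Length of the gene went with the fold change among the members. The 4 assembled members longer than 300 kb with a mean of at least 100 ranged from 0.25 in Kcnq1 to 3.81 in Cacnb2, and the 2 shorter than 20 kb were at −1.53 (Hcn2) and −0.44 (Kcnj11). Kcnd2 is among those 4 only through its libraries numbered 3. Over the 27 members Spearman's rho of log2 fold change and span was 0.62, a description across genes that share the same libraries. The same measure over 9855 assembled coding loci with a mean of at least 100 was 0.53, so the pattern was not particular to channels. In coding loci longer than 300 kb the median was 1.10 and the lower quartile 0.34. Cacna1d (452 kb) and Cacnb2 (385 kb) lay above the upper quartile of these loci, Kcnd2 (514 kb) at 0.93 lay between the quartiles and Kcnq1 (321 kb) at 0.25 lay below the lower one. Kcnip2 spans only 24.2 kb and yet stood at 2.85, and Abcc9 spans 114 kb and stood at −1.02.

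**Figure D4:**
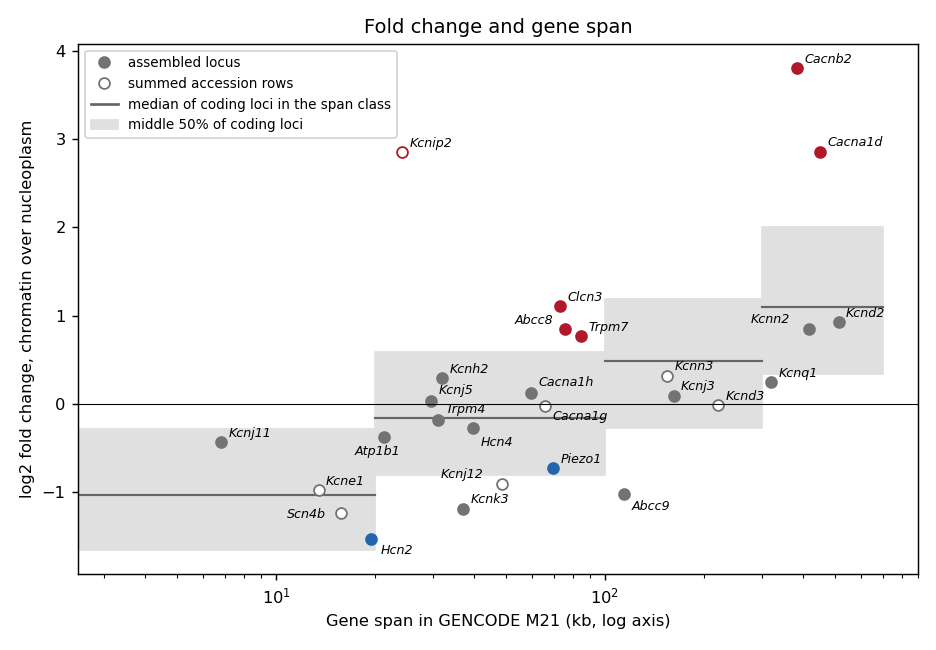
The log2 fold change of chromatin over nucleoplasm against gene span in kb on a log axis for the 27 genes, filled where read from an assembled locus, open where summed from accession rows, red or blue where the adjusted p is under 0.05. Grey lines and bands give the median and the middle 50% of the 9855 assembled coding loci of each span class, by the span of the locus, and Cacnb2, Cacna1d and Kcnip2 lie far above the bands.

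Other rows of the short-read table had at least 0.5 of their span inside a member, 1 on the same strand and 19 on the opposite strand. The same-strand row is an assembled locus in an intron of Kcnj3 (chr2:55467619-55485234, mm10). It read 3782, 3469 and 1742 normalized counts in chromatin and 383, 295 and 187 in nucleoplasm (3.36 ± 0.39, adjusted p = 0.000700, limma). The locus of the gene itself did not pass the test, whereas this intronic locus was far higher in chromatin in every library, and summing both gave Kcnj3 a fold change of 1.51 (adjusted p = 0.0184).

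Of the 16 opposite-strand rows with reads, 4 were higher in chromatin, beside 26.9% of all rows, and 4 lower, beside 20.9%. Kcnq1ot1, the noncoding RNA that silences neighbouring imprinted genes and runs against Kcnq1 (chr7:143213111-143296547), read 2345, 2101 and 1202 in chromatin and 90.9, 65.9 and 74.6 in nucleoplasm (4.55 ± 0.28, adjusted p = 6.58e-05). Kcnq1 itself did not pass the test, as given above. Unannotated loci opposite to Cacna1d (chr14:30484594-30488591) and Abcc8 (chr7:46104264-46106799) were higher by 3.36 ± 0.19 and 3.13 ± 0.29. Going the other way, Rpl14-ps1, a ribosomal protein pseudogene opposite to Trpm4, read 878, 968 and 1279 in chromatin and 3873, 4178 and 5718 in nucleoplasm (−2.14 ± 0.20, adjusted p = 0.000326), and reads of this pseudogene and of its parent gene may be uncertain between them. The short-read counting used strand.

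Long reads of chromatin RNA were assembled into transcripts along these genes. Transcripts of the same strand lying wholly inside the gene were above 0 in 18 members, in both libraries for 14. These were 134 transcripts, of which 109 lay in introns, 16 were RefSeq accessions and 9 were assembled on exons. Intronic transcripts held 72.8% of the summed TPM (a share of all transcripts, scaled for length) in replicate 1 and 82.1% in replicate 2. Counting also the transcripts with at least 0.5 of their span in the gene, described below, the same intronic TPM was 48.5% and 52.7% of the sum. Cacna1d led with 129 and 106 TPM in replicates 1 and 2, of which 122 and 96.8 were in 45 intronic transcripts. Kcnj3 had 81.1 and 58.1 TPM, all of it in 25 intronic transcripts, and Kcnq1 had 44.4 and 36.8 TPM, with 22 of 25 transcripts intronic. These intronic transcripts were short as assembled: the highest in Cacna1d spanned 2.57 kb and had 7.69 and 3.96 TPM. For long-read transcripts contained in introns the study proposes low coverage, priming inside the RNA and RNA still being transcribed. Which of these holds here was not tested, so the assembled lengths need not be those of RNA molecules.

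**Figure D5:**
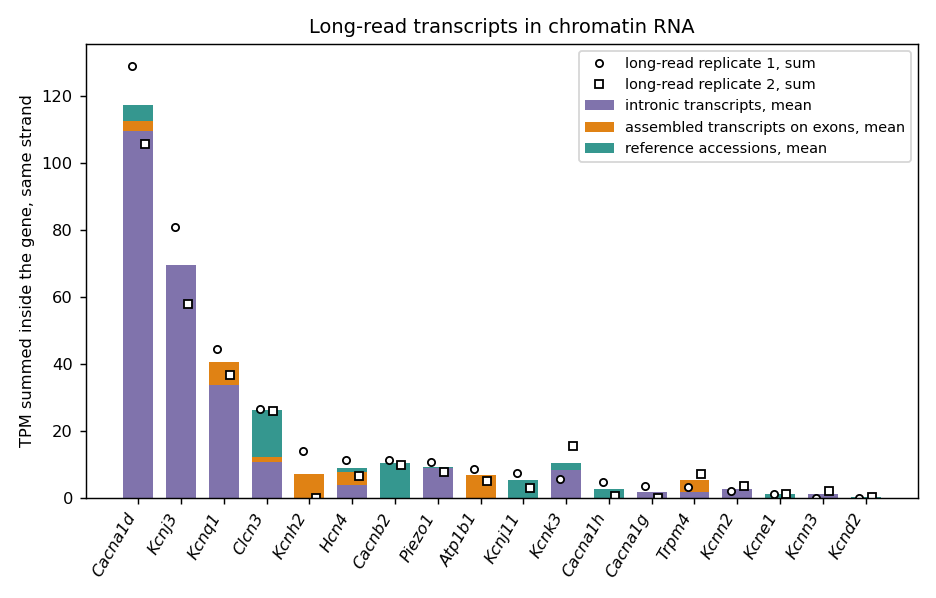
Bars give the mean TPM of the 2 long-read chromatin libraries summed over same-strand transcripts inside each of the 18 genes above 0, split into intronic transcripts (purple), assembled transcripts on exons (orange) and reference accessions (green), and open symbols give the sum in replicate 1 (circle) and 2 (square). Intronic transcripts make up nearly the whole bar of Cacna1d and Kcnj3 and most of that of Kcnq1.

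Clcn3 stood apart from these long genes, with 26.7 and 26.0 TPM of which 16.4 and 11.5 were its accession NM_173876.3. Cacnb2, the highest member by short reads, had 11.4 and 9.72 TPM, all of it in NR_028497.1, a transcript of a pseudogene within the gene. Full-length transcripts that reach a few bases past the GENCODE gene are not counted inside it. With all same-strand transcripts that have at least 0.5 of their span in the gene, Atp1b1 went from 8.55 and 4.94 TPM to 70.7 and 64.1, Trpm7 from 0 in both to 27.0 and 27.0, Kcnh2 from 14.1 and 0 to 27.2 and 14.6, Kcnj5 from 0 in both to 14.4 and 6.80 and Cacnb2 to 23.2 and 13.5. The sums of Cacnb2 still hold the pseudogene transcript, and the accessions of Cacnb2 itself had 11.8 and 3.74 TPM. The main sodium pump transcript NM_009721.6 alone held 62.2 and 59.2 TPM.

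Opposite-strand transcripts inside the members summed to 699 and 530.2 TPM, more than the 365 and 289 TPM of the same strand. Much of this was the pseudogene transcript in Trpm4, with 395 and 267 TPM, and Cacnb2 had 90.4 and 62.6 TPM on the opposite strand. Whether long reads were assigned to their strand of origin before this assembly is not given in the sources used here, so the strand of a long-read transcript without a splice site or annotation is uncertain. With 1 fraction and 2 libraries the long reads give levels and no comparison of fractions.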

How the data were processed

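The members and all gene lists were chosen with earlier results of these data known. The authors depleted ribosomal RNA, added ERCC standards to each fraction, aligned short reads to mm10 with HISAT2 2.1.0, assembled both fractions with StringTie and divided the gene counts by DESeq2 size factors. The deposited short-read signal is therefore a normalized count, not scaled for gene length. Long reads were aligned with minimap2, and the deposited long-read TPM values are per StringTie transcript. All short-read values (100%) were whole multiples of what 1 recovered read is worth, within 0.001 of a recovered read.

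Named were all 29 members and, of 47 other channel genes, the 3 largest rises and falls among those past the threshold with a mean of at least 100. Of these, 1 is not reported here. Rows above 0 in at least 1 library were fitted with limma 3.58.1 (R 4.3.3) allowing the variance to follow the mean, on the log2 scale after a pseudocount of 1 was added, with a threshold of 0.05 for the Benjamini-Hochberg adjusted p. The fit was first run on simulated data with large planted changes and no difference between cultures. That run does not show how the fit does with small changes or with cultures that differ. edgeR 4.0.16 and DESeq2 1.42.0 on recovered reads were alternatives, beside other scalings, filters, pseudocounts, row rules and left-out libraries. The study states 3 independent cultures but not that same-numbered fractions share one. The deviations of same-numbered libraries from their group means correlated at 0.119, 0.106 and 0.252 over 23896 rows with a mean of at least 10 (0.0977, 0.0905 and 0.224 over all 35778 rows), and each library correlated best with its own number, so the numbers were taken as cultures. Whether the study's own tests of fractions used a block is not given in the sources used here.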

Additional observations from a re-analysis of the deposited data

How the results depend on the processing

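With 3 libraries a group, differences smaller than the spread between cultures could not be shown without the block, and Kcnd3 lay within the limit that a count of 0 allows.

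The count of lower members moved most. It was 2, and 7 with the replicate block, 6 without both libraries numbered 3 (chosen after seeing the data), 5 with quantile normalization and 0 with ERCC scaling. Without any 1 library there were 2 to 4 lower and 5 to 6 higher members. Over all rows those fits gave 6643 to 7494 lower and 8358 to 9498 higher, of 34385 to 35561 tested. Of the other channel genes, 9 were lower without the block, 15 with the replicate block, 15 without both libraries numbered 3 and 0 with ERCC scaling. The block changed the call of 8 members, all given above, and of no other member.

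The following log2 fold changes took the other sign. Of these genes, Piezo1 was past the threshold without the block, and Kcnh2, Kcne1, Kcnj11 and Atp1b1 were past it with the block. With ERCC scaling Hcn4 was 0.46, Kcnd3 0.11, Kcnj11 0.29, Cacna1g 0.71, Trpm4 0.55, Piezo1 0.00029 and Atp1b1 0.36. With quantile normalization Kcnh2 was −0.061, Kcnj5 −0.15, Kcnn3 −0.77, Cacna1g 0.24 and Trpm4 0.12. On recovered reads Kcnj5 was −0.12 with edgeR and −0.022 with DESeq2, Cacna1h −0.024 with edgeR and Cacna1g 0.0012 with DESeq2. Without both libraries numbered 3 Kcnj5 was −0.065 and Cacna1g 0.037. With accessions matched by symbol only (chosen after seeing the data) Kcne1 was 2.27.

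Without 1 library at a time Hcn4 ranged from −0.57 to 0.18, Kcnq1 from −0.22 to 0.57, Kcnd2 from −0.85 to 2.88, Kcnd3 from −0.56 to 0.54, Kcnj3 from −0.21 to 0.43, Kcnj5 from −0.53 to 0.49, Cacna1g from −0.26 to 0.28 and Cacna1h from −0.65 to 0.82. The causes were not tested. The calls of Kcnip2, Abcc8, Cacnb2, Trpm7 and Clcn3 held under every alternative that was run for them.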
